A study of Mus musculus with 2 samples.

Results

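The 38 genes described here encode the machinery that copies DNA in S phase, and they were followed gene by gene in the immune cells and CD45-negative cells of mouse melanomas. They were chosen by symbol, without use of their measured values, and all 38 were among the 14654 genes of the deposited table of raw counts. The study asked what the absence of the ubiquitin ligase gene Siah2 from the host does to the cells of a tumor, by RNA sequencing of single cells. YUMMER1.7, a BRAF-mutant mouse melanoma line, was injected into male C57BL/6 mice, 8 weeks old and either wild type (WT) or Siah2-/-, and tumors were taken after 11 days. Siah2-/- is a deletion carried by every host cell but not by the injected melanoma cells, which were the same line in both hosts. CD45+ leukocytes were sorted from the tumors of each genotype, a smaller number of sorted CD45- cells was added back, and 1 droplet library was made per genotype. Genotype, tumors, cell suspension and library therefore cannot be told apart, no test between genotypes was possible, and every interval given here covers counting error only.

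Before S phase, each origin of replication is licensed. CDC6 and CDT1 load the ring of MCM2 to MCM7, the helicase that will unwind DNA, and geminin blocks CDT1 so that no origin is licensed again in the same cycle. In S phase the ring is activated, polymerases copy both strands behind it with the PCNA clamp, the cell raises its supply of deoxynucleotides, and histones and DNA methylation are copied along with the sequence. Many of these genes are known targets of E2F transcription factors, which act when a cell commits to division, and activated T cells in a tumor are known for fast division.

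Promoter sequence is shown for 3 members that carry letters of the E2F type. Whether members with and without such letters differed between the libraries was not tested. In the RefSeq promoter table (GRCm38.p6), 34 of the 38 members had a window, and the 250 bases before each start site were searched on both strands. The letters searched were TTTCCCGC, TTTCGCGC, TTTGCCGC and TTTGGCGC. At least 1 match was found for 10 of the 34 members (29.4%), for 5 of 29 other replication genes with a window (17.2%), for 0 of 10 G2/M genes, and for 396 of 10715 genes of the table with a window (3.70%). Genes with several listed starts had more than 1 window. Among genes with a single window the shares were 24.1% of members and 3.47% of table genes. The letters CCAAT were found for 61.8% of members and 40.3% of table genes. A match is a description of these letters and not a site of binding. The 160 bases before the start are given for Mcm6, Cdc6 and Hells, examples of the helicase, its loaders and the chromatin genes that were picked after the matches were seen, 5′ to 3′ on the strand of the gene, with the matched letters in capitals.
Mcm6, chr1:128359706-128359865, minus strand: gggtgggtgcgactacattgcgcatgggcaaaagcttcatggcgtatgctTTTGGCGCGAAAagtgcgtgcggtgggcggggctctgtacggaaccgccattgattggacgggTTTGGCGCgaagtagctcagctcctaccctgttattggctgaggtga
Cdc6, chr11:98907991-98908150, plus strand: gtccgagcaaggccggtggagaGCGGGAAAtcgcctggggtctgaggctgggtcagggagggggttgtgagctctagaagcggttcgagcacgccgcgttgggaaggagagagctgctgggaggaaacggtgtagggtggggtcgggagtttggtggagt
Hells, chr19:38930830-38930989, plus strand: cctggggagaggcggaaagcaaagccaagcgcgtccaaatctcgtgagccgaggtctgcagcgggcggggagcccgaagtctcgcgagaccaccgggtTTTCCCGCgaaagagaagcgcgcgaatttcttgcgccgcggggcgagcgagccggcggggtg
In Mcm6 a match on the plus strand of the gene overlapped a match to TTTCGCGC on the other strand, so that 3 matches form 2 runs of capitals. The match of Cdc6 lies on the strand opposite to the gene.

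The WT library held 4512 analysed cells, and 5563 came from the library labelled Siah2-/-, called by that label from here on. Their median depth was 11434.5 and 8699 unique molecular identifiers (UMIs, each standing for 1 captured RNA molecule), and the lowest depth was 6670 and 4896. Siah2 itself had 660 UMIs in WT cells and 505 in Siah2-/- cells, but transcripts are read at their 3′ ends and the extent of the deletion was not known here, so this does not check the labels. The libraries shared 34 cell barcodes, and 34 would be shared by independent draws. Cells were put in 7 classes by UMIs of defining markers, such as Cd3e with Cd8a or Cd8b1 for CD8 T-like cells and Csf1r or Adgre1 for macrophage-like cells, and no member was used. A class name means "like" that cell type. Barcodes with markers of T cells and macrophages together, 360 in WT and 440 in Siah2-/-, were left out as possible doublets. The 7 classes held 3476 WT and 3871 Siah2-/- cells.

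Each class was divided by Mki67, the gene of the proliferation antigen Ki67, into cells with at least 1 Mki67 UMI (Mki67-positive) and cells with none (Mki67-negative). A cell with no Mki67 UMI can still be dividing, since shallow cells miss transcripts. In CD8 T-like cells 42.8% of WT cells (182 of 425, exact binomial interval 38.1 to 47.7%) and 19.2% of Siah2-/- cells (160 of 833, 16.6 to 22%) were Mki67-positive. When each cell was thinned to 4000 UMIs the shares were 24.2% and 9.60%. The shares were also lower in Siah2-/- in Treg-like cells (56.2% against 19.0%), NK-like cells (11.4% against 6.03%), macrophage-like cells (13.2% against 6.15%) and DC-like cells (13.5% against 1.49%), and thinning kept that direction in these 4 classes (35.4% against 14.3%, 7.18% against 4.47%, 6.37% against 2.87% and 7.21% against 0.746%). The intervals of the NK-like shares overlapped before thinning, and those of the Treg-like, NK-like and DC-like shares after it. In CD45-negative cells they were 20.5% and 15.7%, with intervals that overlapped.

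**Figure D1:**
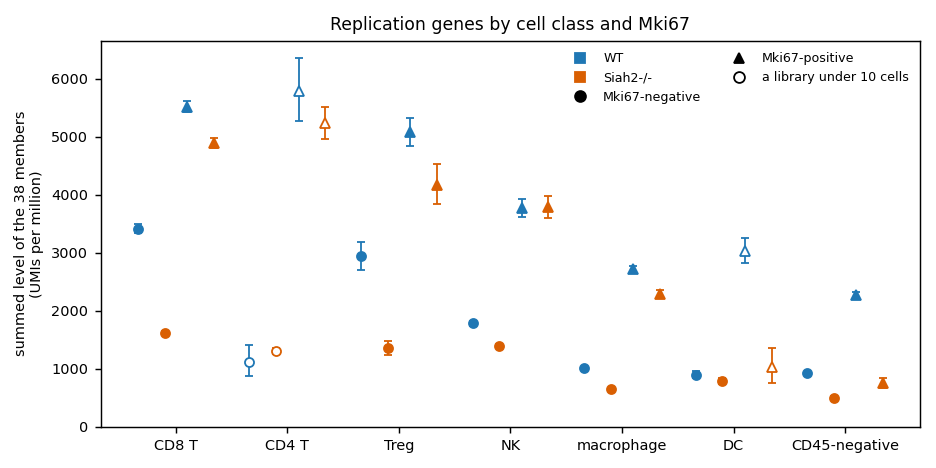
Summed level of the 38 members in each class (CPM, defined in the text) for WT and Siah2-/- libraries, with circles for Mki67-negative and triangles for Mki67-positive cells and bars for exact 95% Poisson intervals of counting error. In CD8 T-like cells the Mki67-positive levels lie close together (5517 and 4889) while the Mki67-negative levels lie far apart (3416 and 1615).

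Levels are given as CPM, the UMIs of a gene for every 1e6 UMIs of that set of cells. Among the classes with at least 10 cells in both libraries, the summed level of the members was highest in CD8 T-like and Treg-like WT cells in both Mki67 parts. CD4 T-like cells, with 8 WT cells in each part, had 5793 and 5233 CPM in their Mki67-positive part. Among Mki67-positive cells of WT it was 5517 CPM in CD8 T-like cells, 5077 in Treg-like cells, 3765 in NK-like cells, 2713 in macrophage-like cells and 2272 in CD45-negative cells. The plot of summed levels shows that these 5 values stood in the same order in Siah2-/-. Among Mki67-positive cells of WT, the level of Rrm2, a subunit of the ribonucleotide reductase that makes deoxynucleotides, ran from 67.8 CPM in CD45-negative cells to 426 CPM in CD8 T-like cells. Dut, which encodes the enzyme that removes dUTP, ran from 131 CPM in macrophage-like cells to 598 CPM in CD8 T-like cells. Hells, a chromatin remodeller needed for DNA methylation, was an exception, with its highest WT level in CD45-negative cells (86.7 CPM) and its lowest in macrophage-like cells (31.0 CPM). RNA outside cells also carried the members: barcodes with at most 100 UMIs had 1705 CPM in WT and 1422 CPM in Siah2-/-, a log2 ratio of −0.26. These levels are above those of Mki67-negative macrophage-like, DC-like and CD45-negative cells in both libraries, and the Siah2-/- value is above that of Mki67-negative Treg-like (1351 CPM) and NK-like cells (1395 CPM). The part of free RNA in these levels was not tested.

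Within a library, most members were higher in Mki67-positive CD8 T-like, NK-like and macrophage-like cells. The summed gap was smaller in WT than in Siah2-/-, at log2 0.69 and 1.60 in CD8 T-like cells, 1.08 and 1.44 in NK-like cells and 1.42 and 1.80 in macrophage-like cells. CD45-negative cells went the other way, at 1.29 in WT and 0.62 (0.42 to 0.81) in Siah2-/-, the latter from 14 and 75 cells. A gene was compared where it had at least 20 UMIs in the 2 sets of cells, and was counted as higher or lower past 1.5-fold. In CD8 T-like cells 23 of 38 members were higher in Mki67-positive cells of WT, against a background of 13.1% of all genes compared, and 37 of 38 in Siah2-/- (background 16.2%). The counts were 27 of 38 (background 17.4%) and 36 of 38 (background 17.6%) in NK-like cells, and 37 of 38 (background 13.3%) and 36 of 38 (background 15.9%) in macrophage-like cells. In WT CD45-negative cells 37 of 38 were higher (background 13.3%), and in those of Siah2-/- 8 of the 19 compared (background 13.8%). The member furthest up was Rrm2 in most of these, with a log2 ratio of 2.21 in WT and 3.29 in Siah2-/- CD8 T-like cells, 4.08 in WT NK-like cells, and 3.69 and 4.02 in macrophage-like cells. Clspn (claspin, a mediator of the replication checkpoint) led in Siah2-/- NK-like cells at 4.29, and Tk1 (thymidine kinase) in WT CD45-negative cells at 2.85.

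In WT CD8 T-like cells the 6 helicase genes had log2 ratios between Mki67-positive and Mki67-negative cells of 0.01 to 0.48. Mcm2, Mcm3, Mcm4 and Mcm6 stood at 0.05, 0.09, 0.01 and 0.01, with intervals that held 0, and Mcm5 and Mcm7 at 0.38 (0.17 to 0.58) and 0.48 (0.27 to 0.70). The 6 genes of nucleotide supply and uracil removal ran from −0.46 to 2.21, with Dut at 0.79, Rrm1 at 1.41, Tyms (thymidylate synthase) at 1.48, Tk1 at 1.72 and Rrm2 highest. In Siah2-/- Mcm2, Mcm3, Mcm4 and Mcm6 stood at 1.02, 1.23, 0.92 and 0.82. Ung, the uracil DNA glycosylase that removes uracil from DNA, was the lowest member in WT, at −0.46 in CD8 T-like and −1.46 in NK-like cells, and stood at 0.73 and 1.00 in the same classes of Siah2-/-. The WT CD8 T gap moved with the setting: it was 1.30, with 35 of 38 members higher (15.3% of all genes), in the wider set of all barcodes with 1000 UMIs or more, 1.01 with Top2a in place of Mki67 (31 of 38, 15.5% of all genes), and 0.49 with cells thinned to 4000 UMIs (13 of 38, 13.2% of all genes). The cause was not tested.

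**Figure D2:**
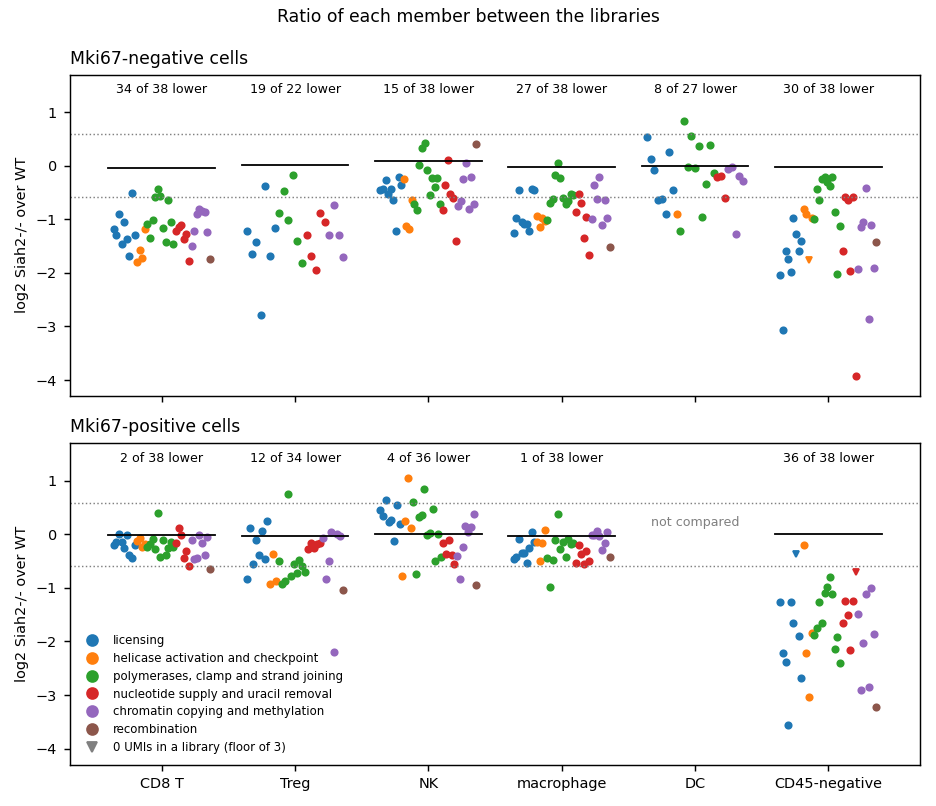
Log2 ratio of Siah2-/- over WT for each member with at least 20 UMIs over both libraries (points, coloured by role; triangles mark members at 0 UMIs in a library, set to a floor of 3), by class, in Mki67-negative (top) and Mki67-positive cells (bottom). Black bars give the median of all genes compared, dotted lines mark 1.5-fold, and most points of the CD8 T, Treg, macrophage and CD45-negative classes lie below the lower line in the top panel.

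Between the genotypes, Mki67-positive CD8 T-like cells held slightly lower levels of replication genes in Siah2-/-. Their summed level was 5517 CPM in WT and 4889 CPM in Siah2-/-, a log2 ratio of −0.17 (−0.21 to −0.14). Past 1.5-fold, 2 of 38 members were lower, against a background of 6.15% of all genes compared, and none was higher (background 9.22%). Below 0 were 35 of 38, with a median of −0.19 against −0.02 over all genes. The 2 were Rad51ap1, a gene of homologous recombination (68.1 and 43.4 CPM, −0.65), and Ung (44.9 and 29.9 CPM, −0.59). Ung was at 0.03 when a Mki67-positive cell needed 2 UMIs. Pcna, the sliding clamp, was the member furthest up, at 184 and 241 CPM (0.39, 0.21 to 0.57), and Rrm1 (0.11) and Mcm4 (0.01) followed.
Licensing genes lay within 1.5-fold in all 9 cases, with Mcm2 at 118 and 102 CPM (−0.20), Mcm5 at 192 and 173 CPM (−0.15), Cdc6 at 32.9 and 25.1 CPM (−0.39), Cdt1 at 46.9 and 34.2 CPM (−0.45) and geminin, Gmnn, at 210 and 183 CPM (−0.20). So did Tyms (−0.16), Rrm2 (−0.02), Tk1 (−0.45), Slbp, which binds histone mRNA (−0.01), Chaf1b of chromatin assembly factor 1 (−0.47), and the methylation genes Dnmt1 (−0.39) and Uhrf1 (−0.17). The 12 G2/M genes summed to 3240 and 2647 CPM (−0.29), and of 41 other replication genes compared 3 were lower and 0 higher. Macrophage markers were at 295 and 522 CPM and Mgl2-type markers at 522 and 860 CPM in this part, and their part in the result was not tested.

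Mki67-negative CD8 T-like cells, in contrast, held less than 50% of the WT level of replication RNA in Siah2-/-. The summed level was 3416 CPM in 243 WT cells and 1615 CPM in 673 Siah2-/- cells, a log2 ratio of −1.08 (−1.12 to −1.04), when the median of all genes was −0.05. Of 38 members 34 were lower past 1.5-fold, against a background of 11.1%, and all 38 were below 0. The 4 not counted were Pcna, Cdt1, Rfc2 and Pold3. All 6 roles took part: 8 of 9 licensing genes, 4 of 4 genes of helicase activation and checkpoint, 8 of 11 genes of polymerases, clamp and strand joining, 6 of 6 of nucleotide supply and uracil removal, 7 of 7 of chromatin copying and methylation, and Rad51ap1 (19.3 and 5.78 CPM, −1.74).

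The helicase itself was lower in each of its 6 subunits. Mcm5 stood at 148 CPM in WT and 53.6 CPM in Siah2-/- (−1.46, −1.69 to −1.23) and Mcm2 at 114 and 50.4 CPM (−1.18). Mcm6, whose promoter letters are given above, stood at 243 and 117 CPM (−1.06). Of the loaders, Cdc6 was among the lower members at 23.7 and 7.36 CPM (−1.69), whereas Cdt1 was at 36.3 and 25.4 CPM (−0.51), inside the fold. Gmnn was at 120 and 49.0 CPM (−1.30). Cdc45, which turns the MCM ring into the active helicase, was the lowest member of all at 30.9 and 8.93 CPM (−1.79), with its partner Gins2 at −1.57. Clspn and Dtl, the latter a receptor of the ubiquitin ligase that clears Cdt1, stood at −1.72 and −1.19.

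The genes of strand copying split. Pcna was at 126 and 92.7 CPM (−0.44), Rfc2 of the clamp loader at 141 and 94.8 CPM (−0.57) and Pold3, a subunit of polymerase delta, at 30.5 and 20.3 CPM (−0.58), all inside the fold. The other loader subunits Rfc3 and Rfc4 stood at −1.17 and −1.43, the ligase gene Lig1 at −1.47, the flap nuclease gene Fen1 at −1.06, the primase gene Prim1 at −1.09, Pola1 and Pold1 of polymerases alpha and delta at −1.35 and −1.01, and Rpa2, which coats single strands, at −0.64. Nucleotide genes were lower together, with Tyms at 82.9 and 35.9 CPM (−1.21), Rrm2 at 92.3 and 43.1 CPM (−1.10), Tk1 at 71.2 and 27.5 CPM (−1.37), Dut at 345 and 143 CPM (−1.28) and Rrm1 at −1.15. Ung, at 61.8 and 18.0 CPM (−1.78), was the furthest down of its group.
Among chromatin genes, Slbp was at 262 and 151 CPM (−0.80), Dnmt1 at 48.8 and 26.8 CPM (−0.87) and Uhrf1, which brings Dnmt1 to newly copied DNA, at 38.5 and 21.5 CPM (−0.84). The assembly factor genes Chaf1a and Chaf1b stood at −1.49 and −1.21, Hells at −1.23 and the histone chaperone gene Nasp at −0.90.

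**Figure D3:**
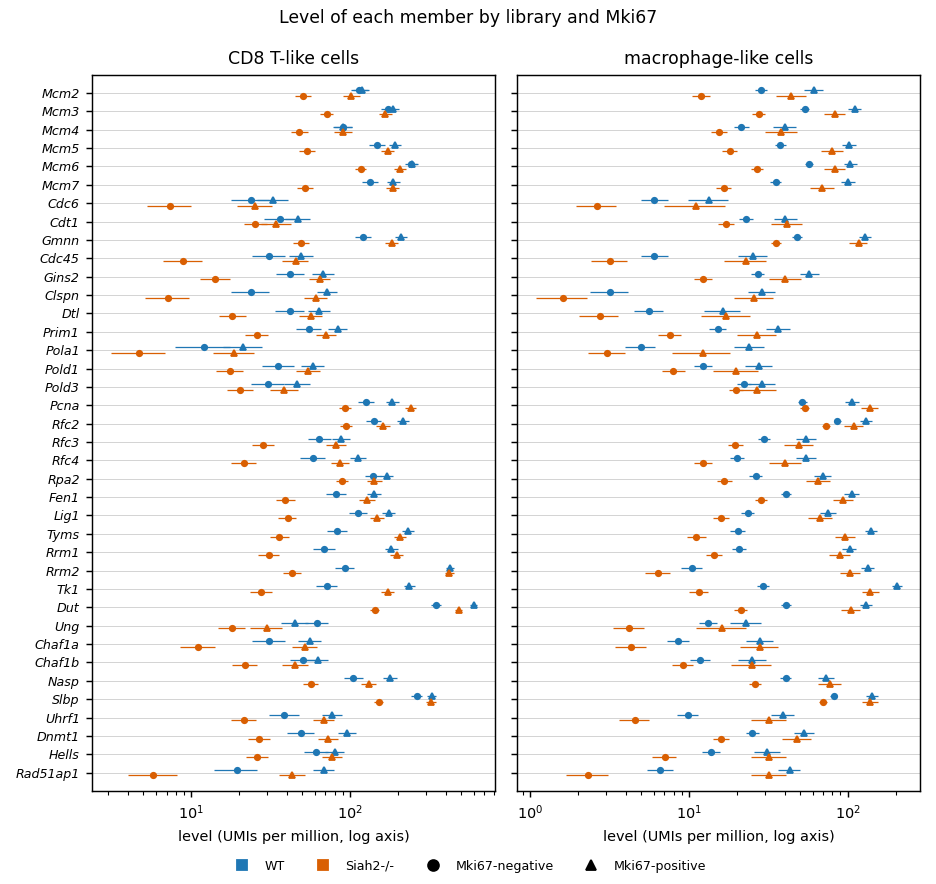
Level of each of the 38 members (CPM, log axis, with exact 95% Poisson intervals) in CD8 T-like (left) and macrophage-like cells (right), for WT and Siah2-/- and by Mki67. In CD8 T-like cells the Siah2-/- Mki67-negative circles stand apart to the left for most members, for example Mcm5 at 53.6 against 148, 173 and 192 in the other 3 sets.

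The lower levels in Mki67-negative CD8 T-like cells came with fewer cells that carried many replication transcripts. After thinning each cell to 4000 UMIs, 10 or more of the 38 members were detected in 98 of 243 WT cells (40.3%, 34.1 to 46.8%) and in 69 of 673 Siah2-/- cells (10.3%, 8.06 to 12.8%). In Mki67-positive cells the shares were 72.5% and 63.8%, with intervals that overlapped. The 12 G2/M genes, which mark cells close to mitosis, were at 446.6 and 187.1 CPM (−1.26) in the Mki67-negative part. Where cells with any UMI of the 12 G2/M genes were also left out, the summed log2 ratio was −0.96 and 26 of 33 members were lower (11.2% of all genes), in 87 WT and 411 Siah2-/- cells. This alternative was chosen after the data were seen. In the wider set of all barcodes with 1000 UMIs or more the ratio was −0.53 and 20 of 38 members were lower (6.03% of all genes), so the size of the difference depends on which cells are kept. T cell markers summed to 5200 and 5290 CPM and macrophage markers, 9 of 9 detected in both libraries, to 713 and 765 CPM. Interferon-induced macrophage markers were at 348 and 569 CPM, monocyte-like markers at 4460 and 5540 CPM and dendritic cell markers at 48.8 and 76.0 CPM. Not every list was higher in Siah2-/-, with resident-like macrophage markers at 20.2 and 20.0 CPM. The part of these markers in the result was not tested.

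**Figure D4:**
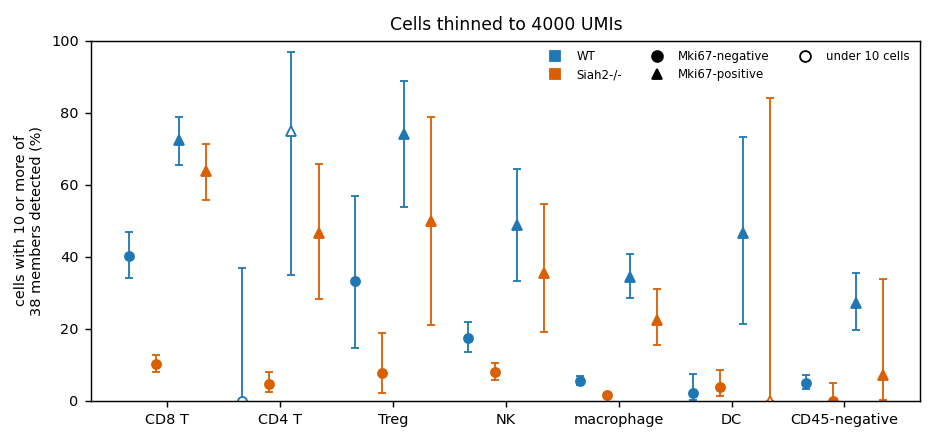
Share of cells with 10 or more of the 38 members detected after thinning to 4000 UMIs, by class, library and Mki67 (called before thinning), with exact 95% binomial intervals. The WT and Siah2-/- circles (Mki67-negative) are apart in CD8 T (40.3% and 10.3%), NK (17.4% and 7.87%) and macrophage classes (5.53% and 1.53%), while intervals of the triangles (Mki67-positive) overlap between the libraries in every class.

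Treg-like cells, regulatory T cells that express Foxp3, were few and showed the same direction. In the Mki67-negative part (21 WT and 51 Siah2-/- cells) the summed level was 2938 and 1351 CPM, a log2 ratio of −1.12 (−1.30 to −0.94), and 19 of the 22 members compared were lower (background 16.4%). The other 16 members had under 20 UMIs over both libraries. Among members with at least 30 UMIs, Mcm5 was the lowest, at 153 and 22.1 CPM (−2.79), from 30 and 8 UMIs. Rrm2 (−1.95) and Mcm7 (−1.68) came next among them. Rpa2 (−0.18), Mcm6 (−0.38) and Rfc2 (−0.47) were the highest. Between these lay Mcm2 (−1.22), Tyms (−1.30), Dnmt1 (−1.30), Gmnn (−1.17), Pcna (−0.88), Tk1 (−0.88) and Slbp (−0.73). Markers of Mgl2-type macrophages, which include genes of MHC class II, differed here too, at 8350 and 1930 CPM, and the macrophage list was at 1910 and 859 CPM. Their part in the result was not tested.
With all barcodes of 1000 UMIs or more, now 297 WT and 178 Siah2-/- cells, the ratio was −0.23 and 8 of 29 members were lower (9.48% of all genes), and with Top2a in place of Mki67 it was −0.40 and 6 of 14 (14.3% of all genes), with Dnmt1 at 0.51. In the Mki67-positive part (27 and 12 cells) the summed level was 5077 and 4169 CPM (−0.28, −0.42 to −0.15), and 12 of 34 members were lower (background 14.9%). Without the 5% of cells with most UMIs the ratio was −0.52 and 17 of 32 were lower (16.5% of all genes). A single Siah2-/- cell held up to 46.5% of the UMIs of a named member here (Rrm2). Among members with at least 30 UMIs, Uhrf1 was the lowest at 99.9 and 21.8 CPM (−2.19), from 32 and 3 UMIs. Mcm2 and Chaf1b (both −0.84) came next among them, and Rad51ap1, with fewer UMIs, was at −1.04. Pcna was highest at 159 and 269 CPM (0.76, 0.11 to 1.40), ahead of Gmnn (0.24) and Mcm3 (0.12). Macrophage markers were at 225 and 1190 CPM and the Mgl2-type list at 3040 and 1160 CPM in this part, and their part in the result was not tested. Mcm5 (−0.10), Tyms (−0.28), Rrm2 (−0.25), Tk1 (−0.18), Cdt1 (−0.46), Slbp (0.04) and Dnmt1 (0.01) stayed inside the fold.

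NK-like cells are innate lymphocytes marked by Ncr1. Their Mki67-positive summed levels were 3765 and 3782 CPM (0.01, −0.09 to 0.10) in 43 WT and 31 Siah2-/- cells. Other settings put the summed ratio between −0.29 (Top2a in place of Mki67) and 0.30 (2 or more Mki67 UMIs), so no direction is read. Macrophage markers were at 1030 and 501 CPM and interferon-induced macrophage markers at 562 and 222 CPM here, and their part was not tested. Of 36 members compared, 4 were lower (background 8.98%) and 4 higher (background 12.1%). Clspn was highest at 40.2 and 83.1 CPM (1.05, 0.25 to 1.86), with Pcna at 117 and 210 CPM (0.84) and Mcm4 at 0.64. Rad51ap1 (−0.95), Chaf1b (−0.83) and Cdc45 (−0.78) were lowest. Mcm2 (0.46), Mcm5 (0.22), Cdt1 (0.54), Gmnn (0.20), Slbp (0.15), Dnmt1 (0.13), Uhrf1 (0.04), Rrm2 (−0.10), Tyms (−0.16) and Tk1 (−0.39) lay inside the fold.

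In Mki67-negative NK-like cells the summed level was 1782 and 1395 CPM (−0.35, −0.41 to −0.30). Of 38 members 15 were lower, against a background of 4.63%, and none was higher (background 13%). Ung was furthest down at 32.4 and 12.2 CPM (−1.40, −1.91 to −0.91), with Cdc6 at 9.89 and 4.24 CPM (−1.22) and Clspn at 9.59 and 4.24 CPM (−1.18). Tyms (−0.83) and Uhrf1 (−0.81) were also lower past the fold. Pcna went the other way at 59.6 and 80.5 CPM (0.43, 0.18 to 0.69), as did Rad51ap1 (0.41) and Pold3 (0.32). Mcm2 (−0.46), Mcm5 (−0.52), Tk1 (−0.53), Gmnn (−0.36), Cdt1 (−0.21), Dnmt1 (−0.21), Slbp (0.05) and Rrm2 (0.11) stayed inside the fold. With the WT minimum of 6670 UMIs applied to both libraries, 6 members were lower (4.6% of all genes) and the summed ratio was −0.23. In all barcodes from 1000 UMIs on, 5 were lower (3.6% of all genes) at −0.15. Mgl2-type markers were at 434 and 1040 CPM, and their part was not tested.

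Macrophage-like cells were the most numerous class. In the Mki67-positive part (244 and 120 cells) the summed level was 2713 and 2282 CPM (−0.25, −0.30 to −0.20). Only 1 of 38 members was lower past the fold (background 8.28%), Pola1, the catalytic subunit of polymerase alpha, at 23.9 and 12.2 CPM (−0.98). Tk1 at 205 and 139 CPM (−0.56) and Mcm7 and Tyms (both −0.54) came next, and Pcna (0.38, 0.15 to 0.61), Dtl (0.08) and Nasp (0.07) stood highest. Mcm2 (−0.47), Mcm5 (−0.35), Rrm2 (−0.37), Ung (−0.49), Cdc6 (−0.26), Uhrf1 (−0.29), Dnmt1 (−0.16), Gmnn (−0.14), Slbp (−0.04) and Cdt1 (0.04) lay between. With cells thinned to 4000 UMIs the ratio was −0.43 and 10 of 26 were lower (15.9% of all genes), and it was −0.42 both with Top2a (9 of 38, 6.84% of all genes) and without the 5% of cells with most UMIs (9 of 38, 11.1% of all genes).

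In the Mki67-negative part (1608 and 1830 cells) the summed level was 1017 and 656.7 CPM (−0.63, −0.66 to −0.60), and 27 of 38 members were lower against a background of 7.63%. Ung was lowest at 13.2 and 4.17 CPM (−1.66, −2.05 to −1.28), followed by Rad51ap1 at 6.57 and 2.30 CPM (−1.51) and Tk1 at 29.2 and 11.5 CPM (−1.35). Mcm2 stood at 28.5 and 11.9 CPM (−1.25), Mcm5 at 37.6 and 18.0 CPM (−1.06) and Cdc6 at −1.21. Uhrf1 (−1.11), Tyms (−0.87), Rrm2 (−0.70) and Dnmt1 (−0.65) were lower as well. Pcna was at 51.6 and 53.5 CPM (0.05), the only member above 0, and Pold3 (−0.17), Slbp (−0.22), Cdt1 (−0.43) and Gmnn (−0.45) were inside the fold. Leaving out cells with a UMI of any of the 12 G2/M genes gave 16 of 38 lower (6.66% of all genes) and a summed ratio of −0.40.

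The Mki67-negative macrophage difference was present in each of the 4 states given here, set by the highest score over marker lists. In Mki67-negative cells the summed log2 ratio was −0.51 (−0.57 to −0.45) in Mgl2-type cells, −0.40 (−0.48 to −0.33) in interferon-induced cells, −0.37 (−0.47 to −0.26) in monocyte-like cells and −0.28 (−0.35 to −0.20) in resident-like cells. Resident-like cells, which carry Folr2 and Fcrls, had the highest levels, 1381 CPM in WT and 1142 CPM in Siah2-/-, and monocyte-like cells the lowest, 591.5 and 459 CPM. The make-up of the class differed between libraries: resident-like cells were 465 in WT and 136 in Siah2-/-, and monocyte-like cells 257 and 466. State membership was close to the cut for 30.5% of macrophage-like cells. In Mki67-positive resident-like cells the levels were 2905 and 2461 CPM (−0.24, −0.34 to −0.14), and in Mgl2-type cells 2670 and 2457 CPM (−0.12, −0.22 to −0.02). Those of interferon-induced cells were 2520 and 2435 CPM (−0.05, −0.16 to 0.06), with an interval that held 0. Monocyte-like cells, 13 in WT and only 9 in Siah2-/-, were at 952.6 and 587.4 CPM (−0.70, −1.23 to −0.19), under the minimum of 10 cells.

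DC-like cells had only 15 WT and 2 Siah2-/- Mki67-positive cells, so that part was not compared. In the Mki67-negative part the summed level was 895.4 and 783.3 CPM (−0.19, −0.33 to −0.06), and 8 of the 27 members compared were lower (background 10.5%). Among members with at least 30 UMIs, the lowest were Uhrf1 at 21.6 and 8.91 CPM (−1.28), Rfc4 (−0.96) and Mcm7 (−0.91). Pold1, the catalytic subunit of polymerase delta, was higher at 24.6 and 43.7 CPM (0.83, 0.12 to 1.58), ahead of Pcna (0.56) and Mcm2 (0.53). Mcm5 was at −0.64, and Gmnn (−0.45), Tyms (−0.21), Dnmt1 (−0.20), Slbp (−0.02) and Cdt1 (0.25) lay within the fold. Markers of macrophages were at 2770 and 4430 CPM in these cells, and their part was not tested. With stricter gates the summed ratio was 0.02, so no direction is read for this class.

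CD45-negative cells, which held no Ptprc UMI and at least 10 UMIs of Col1a2, Col3a1, Prrx1 or Hmga2, showed lower replication genes in Siah2-/- in both parts. The Mki67-positive part had 133 WT but only 14 Siah2-/- cells. Its summed level was 2272 and 753.5 CPM (−1.59, −1.77 to −1.42), and 36 of 38 members were lower against a background of 21.3%. Mcm5 was lowest at 62.9 and 5.32 CPM (−3.56), from 286 and 2 UMIs, with Rad51ap1 (−3.22) and Clspn (−3.03) from 1 UMI each in Siah2-/-. Tk1 stood at 119 and 26.6 CPM (−2.16), Gmnn at 68.2 and 10.6 CPM (−2.68), Uhrf1 at 57.2 and 7.99 CPM (−2.84) and Rrm2 at 67.8 and 24.0 CPM (−1.50). Mcm2 (−1.26), Cdt1 (−1.90), Tyms (−1.65), Slbp (−1.12), Pcna (−1.10) and Dnmt1 (−1.01) were lower too. Cdc45 was highest, at 21.3 and 18.6 CPM (−0.20, −1.55 to 0.90). Ung and Cdc6 had 59 and 47 UMIs in WT and 0 in Siah2-/-, which sets their log2 ratios at or below −0.70 and −0.37 with a floor of 3 UMIs for the library. In the wider set of barcodes, with 173 and 26 cells, 21 of 38 were lower (15.6% of all genes), the summed ratio was −0.58 and Pcna was at 0.19.

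In Mki67-negative CD45-negative cells (515 and 75) the summed level was 929.5 and 490.9 CPM (−0.92, −1.02 to −0.82), and 30 of 38 members were lower (background 10.2%). All 9 licensing genes were among them, with Mcm3 at 26.6 and 3.17 CPM (−3.07), Mcm2 at −2.04, Mcm5 at −1.74, Cdt1 at −1.59, Gmnn at −1.41 and Cdc6 at −1.27. Uhrf1 was at 15.4 and 2.12 CPM (−2.86), Tk1 at −1.96, Tyms at −1.59, Dnmt1 at −1.11 and Rrm2 at −0.64, and Ung had 94 and 1 UMIs (−3.92). Pcna and Rfc4 (both −0.22), Pold3 (−0.25) and Slbp (−0.41) were within the fold.
The class is mixed. Markers of macrophages were at 212 and 471 CPM and those of fibroblast-like cells at 3080 and 3470 CPM in the Mki67-negative part, and fibroblast-like markers at 1730 and 3120 CPM in the Mki67-positive part, and their part in the result was not tested. Cells with 3 or more Hmga2 UMIs, a marker of the tumor-like list, had 1253 and 523.9 CPM in their Mki67-negative part (−1.26, −1.38 to −1.13), and the others 548 and 446.7 CPM (−0.29, −0.46 to −0.14). Of the 8 genes of that list 6 were counted, and 2 of them had 0 UMIs in WT and 1 in Siah2-/- Mki67-negative cells of the class. The list summed to 634 and 585 CPM there, and to 575 and 570 CPM in the Mki67-positive part. Whether the Hmga2 cut separates tumor cells from other cells was not tested. Among all CD45-negative cells, 348 of WT and 52 of Siah2-/- held 3 or more Hmga2 UMIs. Without the 5% of cells with most UMIs, 16 of 38 members were lower (14.3% of all genes), the summed ratio was −0.34 and Mcm5 was at 0.14. Without any G2/M UMI, which left 128 WT and 15 Siah2-/- cells, 6 of 23 were lower (19.4% of all genes), the ratio was −0.21, and Mcm2, Tk1 and Uhrf1 were above 0.

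Over all cells of a class, the share of Mki67-positive cells and the level within each part come together. All cells of the class gave a summed log2 ratio of −0.79 in CD8 T-like cells, with 33 of 38 members lower (background 9.54%), −1.0 in Treg-like cells (31 of 35, background 16.8%), −0.38 in NK-like cells (15 of 38, background 5.17%), −0.69 in macrophage-like cells (29 of 38, background 8.32%), −0.75 in DC-like cells (25 of 35, background 12.1%) and −1.29 in CD45-negative cells (36 of 38, background 12%). In all barcodes with 1000 UMIs or more the ratio was −0.45 in CD8 T-like, −0.45 in Treg-like and −0.18 in NK-like cells, and without the 5% of cells with most UMIs it was −0.58 in CD45-negative cells. When the Siah2-/- level was recomputed with the WT share of UMIs from Mki67-positive cells, the ratios were −0.44, −0.46, −0.25, −0.48, −0.68 and −1.21 in CD8 T-like, Treg-like, NK-like, macrophage-like, DC-like and CD45-negative cells. The DC value rests on 47 member UMIs of the 2 Mki67-positive Siah2-/- cells, and the CD45-negative value on 14 such cells. In CD4 T-like cells without Foxp3, with only 16 WT cells, 27 of 35 members were lower (background 23.2%), and the ratio went from −1.04 to −0.09 with the WT share.

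Of the 41 other replication genes, which were not members, those with 20 UMIs or more were counted in the same way. Backgrounds of lower genes are those given above for each class and part. Parentheses give the share of all genes compared that were higher. In the Mki67-negative part 28 of 39 compared were lower and 1 higher (11.9%) in CD8 T-like cells. Macrophage-like cells had 15 of 41 lower and 0 higher (10.8%), and NK-like cells 7 of 34 lower and 3 higher (13%). CD45-negative cells had 23 of 38 lower and 1 higher (9.81%). Treg-like cells had 4 of 8 lower and 1 higher (18.5%), and DC-like cells 6 of 18 lower and 3 higher (14%). In the Mki67-positive part the counts were 3 of 41 lower and 0 higher (9.22%) in CD8 T-like cells. Macrophage-like cells had 3 of 40 lower and 1 higher (8.2%), and NK-like cells 1 of 25 lower and 1 higher (12.1%). Treg-like cells had 8 of 18 lower and 0 higher (14.5%), and CD45-negative cells 28 of 39 lower and 0 higher (21.4%).

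Pcna and Ung stood near opposite ends in several classes. Pcna was the highest member of the Mki67-positive part in CD8 T-like, Treg-like and macrophage-like cells, and the highest of the Mki67-negative part in CD8 T-like, NK-like and macrophage-like cells. Ung was among the 3 lowest in Mki67-negative CD8 T-like, NK-like, macrophage-like and CD45-negative cells. Processed pseudogenes named after Pcna, Tyms and Nasp are annotated in GENCODE vM21, and reads shared with them cannot be assigned with certainty.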

How the data were processed

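Cells from YUMMER1.7 tumors of WT and Siah2-/- hosts were profiled as 1 droplet library per genotype. The authors made the deposited UMI counts with bcl2fastq and Cell Ranger (version not given in the sources used here) on mm10/GRCm38 and filtered the cells. The deposited table of raw counts holds 14654 genes and 10100 cells, of which the 10075 also present in the authors' table of natural log normalized values were analysed. The natural log values entered no result. Sums of the members equalled those in the unfiltered matrices in 76 of 76 cases.

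UMIs were summed per library, class and Mki67 part in Python 3.11.15 with numpy 2.4.6, scipy 1.17.1 and pandas 2.3.3. Classes were gated per cell on marker UMIs, with thresholds set on those markers after their counts had been seen. The T gate required 3 CD3 UMIs with at least 1 of Cd3e (and 2 of Cd8a and Cd8b1 for CD8 T, 1 of Foxp3 for Treg), the NK gate 2 of Ncr1, the macrophage gate 3 of Csf1r and Adgre1, the DC gate 3 DC marker UMIs and the CD45-negative gate 10 UMIs. No doublet caller was run. Values of 1 further macrophage state are not reported here. Levels carry exact Poisson intervals, and ratios and shares exact binomial (Clopper-Pearson) intervals, at 95% and for counting error only. With 1 library per genotype no test was run. A gene was compared from 20 UMIs over both libraries and 10 cells per library, and counted past 1.5-fold, and a library at 0 was set to 3 UMIs. The script was tested on simulated data.

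In each class and part the text names Mcm2, Mcm5, Pcna, Tyms, Rrm2, Tk1, Cdc6, Cdt1, Gmnn, Ung, Slbp, Dnmt1 and Uhrf1 where they reached 20 UMIs, and the 3 lowest and 3 highest members with at least 30 UMIs. Other members named were chosen after their values were seen. Members and lists were chosen with earlier results of these data known. The alternatives changed depth per cell, the definition of a dividing cell, the lowest depth, the deepest cells, the gates, the cells used, the weight of a cell and the count minimum.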

Additional observations from a re-analysis of the deposited data

Results flagged for a closer look

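The following members stood on opposite sides of 0 in different cell classes, each past 1.5-fold on both sides and with an interval of counting error that left out 0. With 1 library per genotype these differences were not tested. In Mki67-positive cells Pcna had a log2 ratio of Siah2-/- over WT of 0.76 in Treg-like cells and 0.84 in NK-like cells, but −1.10 in CD45-negative cells, where it rested on 9 UMIs of 14 Siah2-/- cells. Clspn was at 1.05 in Mki67-positive NK-like cells and at −3.03 in CD45-negative cells, the latter from 1 Siah2-/- UMI. In Mki67-negative cells Pold1 was at 0.83 in DC-like cells, and at −1.01 in CD8 T-like and −0.62 in macrophage-like cells.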

How the results depend on the processing

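Under 11 alternative settings, 175 counts of members stayed within 1.5 times of the value given and 40 did not. Of the summed levels 112 stayed within their interval, 102 did not, and 1 changed sign from a value whose interval left out 0, and of the single members 1041 did and 122 did not, besides 7 past the fold that changed sign. Some of these values could not move. Asking for 2 Mki67 UMIs leaves the Mki67-negative cells as they were, and Top2a leaves all cells of a class as they were. The count minimum alters neither summed levels nor single members. The tallies of values that stayed include such cases. The 40 counts follow, each with the members compared and, in parentheses, the share of all genes. The cause was not tested unless the setting itself leaves fewer cells or genes. With cells thinned to 4000 UMIs, lower members were 4 of 35 (12.1%) in CD8 T and 10 of 26 (15.9%) in macrophage Mki67-positive cells, 5 of 14 (12.7%) in Mki67-negative DC, and 19 of 22 (18.4%) in Treg and 9 of 18 (12.7%) in DC over all cells, and 13 of 38 (13.2%) were higher in Mki67-positive WT CD8 T-like cells. With 2 or more Mki67 UMIs they were 1 of 38 (6.12%) in CD8 T and 1 of 34 (10.2%) in NK Mki67-positive cells. With Top2a in place of Mki67 they were 9 of 38 (7.36%) in NK and 9 of 38 (6.84%) in macrophage cells of the positive part, and 6 of 14 (14.3%) in Treg and 5 of 24 (10.4%) in DC of the negative part. With the WT minimum of UMIs they were 1 of 38 (6.05%) in Mki67-positive CD8 T, 6 of 38 (4.6%) in NK and 5 of 26 (10.4%) in DC of the negative part, and 5 of 38 (4.8%) in all NK cells. Without the 5% of cells with most UMIs they were 9 of 38 (11.1%) in Mki67-positive macrophage cells, and 16 of 38 (14.3%, Mki67-negative) and 19 of 38 (14.4%, all) in CD45-negative cells. Stricter gates gave 1 of 38 (6.04%) in CD8 T and 2 of 38 (8.5%) in macrophage cells of the positive part, and 8 of 11 (20.2%) in Treg and 2 of 24 (9.97%) in DC of the negative part. In all barcodes with 1000 or more UMIs they were 1 of 38 (5.97%) in CD8 T and 21 of 38 (15.6%) in CD45-negative cells of the positive part, 20 of 38 (6.03%) in CD8 T, 8 of 29 (9.48%) in Treg, 5 of 38 (3.6%) in NK and 5 of 28 (7.89%) in DC of the negative part, 11 of 38 (5.24%) in CD8 T, 16 of 36 (9.74%) in Treg and 3 of 38 (3.82%) in NK over all cells, and 35 of 38 (15.3%) were higher in Mki67-positive WT CD8 T-like cells. The mean over cells gave 7 of 36 (10.1%) in NK and 9 of 38 (10%) in macrophage cells of the positive part. With no count minimum they were 30 of 38 (36.7%) in Treg and 14 of 38 (21.8%) in DC of the negative part. Without any G2/M UMI, a setting chosen after the data were seen, they were 16 of 38 (6.66%) in macrophage, 3 of 16 (10.1%) in DC and 6 of 23 (19.4%) in CD45-negative cells.

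Among summed levels whose interval left out 0, and single members that were also past 1.5-fold, those that changed sign were the summed level in Mki67-negative DC-like cells (0.02 with stricter gates), Ung in Mki67-positive CD8 T-like cells (0.03 with 2 or more Mki67 UMIs), Dnmt1 in Mki67-negative Treg-like cells (0.51 with Top2a), Mcm5 in Mki67-negative CD45-negative cells (0.14 without the deepest cells), Pcna in Mki67-positive CD45-negative cells (0.19 in all barcodes with 1000 or more UMIs), and Mcm2, Tk1 and Uhrf1 in Mki67-negative CD45-negative cells without a G2/M UMI (0.41, 1.41 and 1.77). The summed level in Mki67-positive NK-like cells, at 0.01 with an interval that held 0, was −0.24 with thinning, −0.29 with Top2a and −0.10 as a mean over cells. No paired analysis was possible because each genotype has 1 library. Depth limits the Mki67 division: cells without a Mki67 UMI can divide, and the deepest class, CD45-negative cells, had a median of 22844.5 WT UMIs against 9343.5 in NK-like cells. The 14 Mki67-positive CD45-negative cells of Siah2-/- held 283 UMIs of all members.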
